A study of Mus musculus with 50 samples.

Results

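The clone-named and predicted genes described here are 5 gene rows of 33924 that both count tables carry, BC064078, Gm8420, Gm17004, 1190002H23Rik and Gm11428. They were chosen by their measured levels in these libraries, which differed strongly with the Flt3 genotype, the cell type or the second mutation, and because their names say nothing of what they are. Those 3 contrasts are therefore given below as descriptions with no test. Time in Flt3 mice and tamoxifen treatment were not named in the rule of choice and were tested. The time tests use Flt3 libraries that also entered the choice, so they are not independent of it. Besides the 5, the tables hold 11966 other rows with names of the same kind.

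RNA was sequenced from 50 mouse samples of 16 groups, sorted as LSK cells (lineage-negative, Sca1-positive, Kit-positive stem and progenitor cells), as GMP (granulocyte and macrophage progenitors) or as lineage-negative (Lin-) progenitors. The first table holds 30 libraries: Flt3 mutant LSK and Flt3 mutant GMP labelled 2, 4, 6 and 8 weeks, and wild-type (WT) LSK and GMP labelled 4 weeks, with 3 libraries in each group. The second table holds 20 libraries: 4 Npm1 Flt3 LSK, 3 Dnmt3a Flt3 LSK, 4 Npm1 Flt3 GMP and 3 Dnmt3a Flt3 GMP, all labelled without a time, and Lin- progenitors of Npm1 Flt3 mice given tamoxifen (TAM, 3 libraries) or vehicle (3 libraries). Every group except WT therefore carried the Flt3 mutation at the start, and TAM was given for 7 days to delete the mutant Flt3 allele. The mutations were switched on by Cre, Dre or Flp recombinase. Which recombinase, which promoter and which Flt3 lesion each group had is not given in the sources used here, and neither is whether libraries of a group came from separate mice, so p-values measure the spread between libraries, which may be technical.

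Library totals ran from 306571 to 8249135 counts in the first table, leaving out 1 near-empty library, and from 15053592 to 128057407 in the second. The near-empty library, Flt3 8-week GMP replicate 2 with 1942 counts, is left out of all levels below but stayed in the fits. A sample code ending in the letter of the other cell type occurs in 2 libraries of the second table, Dnmt3a Flt3 LSK replicate 1 and Dnmt3a Flt3 GMP replicate 2, and their values are given apart. Sample codes of WT and of Flt3 libraries come from separate series, so a difference by genotype cannot be told apart from one by code series. The same holds for the second mutation, since Npm1 Flt3 and Dnmt3a Flt3 LSK and GMP libraries also have codes of separate series. All 8 LSK sort markers and all 8 GMP sort markers had counts in every group. Levels are counts scaled to a common library total (CPM), and levels of the 2 tables come from separate experiments with no common scaling.

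FLT3 is a receptor tyrosine kinase of early blood progenitors, and its activating mutations are common in acute myeloid leukaemia, where they signal through STAT5 and other pathways. Among the rows, 3 are protein-coding or receptor genes under old names: Gm17004 is Trgc1, a constant region of the T-cell receptor gamma locus, which is transcribed unrearranged in early lymphoid precursors under cytokine and STAT5 signals, 1190002H23Rik is Rgcc (also RGC-32), a regulator of the cell cycle that binds the mitotic kinase CDK1, and Gm11428 is Wfdc17, a small secreted protein with a whey acidic protein (WAP) domain made by activated macrophages. The other two code for no known protein. Gm8420 is a processed pseudogene, a reverse-copied messenger RNA put back into the genome, of the ribosomal protein gene Rpl15, and BC064078 is a non-coding gene inside the Clec2 cluster, whose neighbours code for lectin-like ligands of natural killer cell receptors.

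On mouse build GRCm38 (mm10), RefSeq places BC064078 at chr6:128992961-129006647 as a long non-coding RNA, 8254 bases from Clec2g and 2156 bases from Clec2f, and GENCODE M21 lists it as a transcribed unprocessed pseudogene. Gm8420 lies at chr1:51940674-51941299. Gm17004 lies at chr13:19214103-19216618, 3701 bases from the joining segment Trgj1 (row Gm17003). 1190002H23Rik lies at chr14:79288750-79301635, between Zfp957 and Naa16, and Gm11428 at chr11:83704056-83706269, 2735 bases from Wfdc18 (row Expi). RefSeq lists the old symbols Gm17004, 1190002H23Rik and Gm11428 as synonyms of Trgc1, Rgcc and Wfdc17.

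Of the rows, 4 have close copies elsewhere, which bears on what their counts mean, since a read from a stretch without a differing base fits both places. The Gm8420 transcript matches Rpl15 on chromosome 14 at 96.6% over 596 aligned bases with 20 mismatches, and the longest identical run is 87 bases. These 90 bases of each, from GENCODE M21 (minus strand, chr1:51941106-51941195 and chr14:18270295-18270384), show the 6 differing bases in capitals.
Gm8420: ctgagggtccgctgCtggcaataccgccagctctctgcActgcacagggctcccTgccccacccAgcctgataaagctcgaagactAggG
Rpl15: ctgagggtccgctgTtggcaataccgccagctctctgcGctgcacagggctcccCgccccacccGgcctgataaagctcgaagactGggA

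The Gm17004 transcript (Tcrg-C1 in GENCODE) matches Tcrg-C3 at 97.2% with 18 mismatches and Tcrg-C2 at 96.1% with 35 mismatches, with identical runs of up to 122 and 104 bases. The 3 copies are shown over the same 90 bases (chr13:19214212-19214301 and chr13:19260994-19261083 on the plus strand, chr13:19307353-19307442 on the minus strand), with the 9 positions where they are not all alike in capitals.
Gm17004: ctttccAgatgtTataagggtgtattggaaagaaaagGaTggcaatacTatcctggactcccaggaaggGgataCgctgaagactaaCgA
Tcrg-C3: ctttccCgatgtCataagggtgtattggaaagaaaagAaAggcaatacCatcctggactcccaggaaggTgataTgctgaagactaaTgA
Tcrg-C2: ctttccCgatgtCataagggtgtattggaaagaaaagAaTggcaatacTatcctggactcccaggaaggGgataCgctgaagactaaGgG

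Gm11428 and BC064078 stand farther from their relatives. Gm11428 matches Wfdc18 at 83.2% over 500 aligned bases, with no identical run above 30 bases, and BC064078 matches Clec2g at 85.8% over 211 aligned bases, with no run above 31. Stretches of both pairs are shown with differing bases in capitals (plus strand, chr11:83704818-83704907 and chr11:83709875-83709964, then chr6:129001601-129001660 and chr6:128981302-128981361).
Gm11428: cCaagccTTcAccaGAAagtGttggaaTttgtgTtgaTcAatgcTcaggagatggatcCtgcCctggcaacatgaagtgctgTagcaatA
Wfdc18: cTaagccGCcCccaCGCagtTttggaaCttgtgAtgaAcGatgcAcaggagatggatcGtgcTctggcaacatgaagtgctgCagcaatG
BC064078: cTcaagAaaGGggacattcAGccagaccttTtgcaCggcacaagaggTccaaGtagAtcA
Clec2g: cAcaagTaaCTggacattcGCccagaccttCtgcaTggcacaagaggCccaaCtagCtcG

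How the submitters counted reads that fit more than 1 place, and whether counting used the strand, is not given in the sources used here. Counts of Gm8420 and Gm17004 are therefore uncertain between the copies, and the values below are those of the row as deposited.

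**Figure D1:**
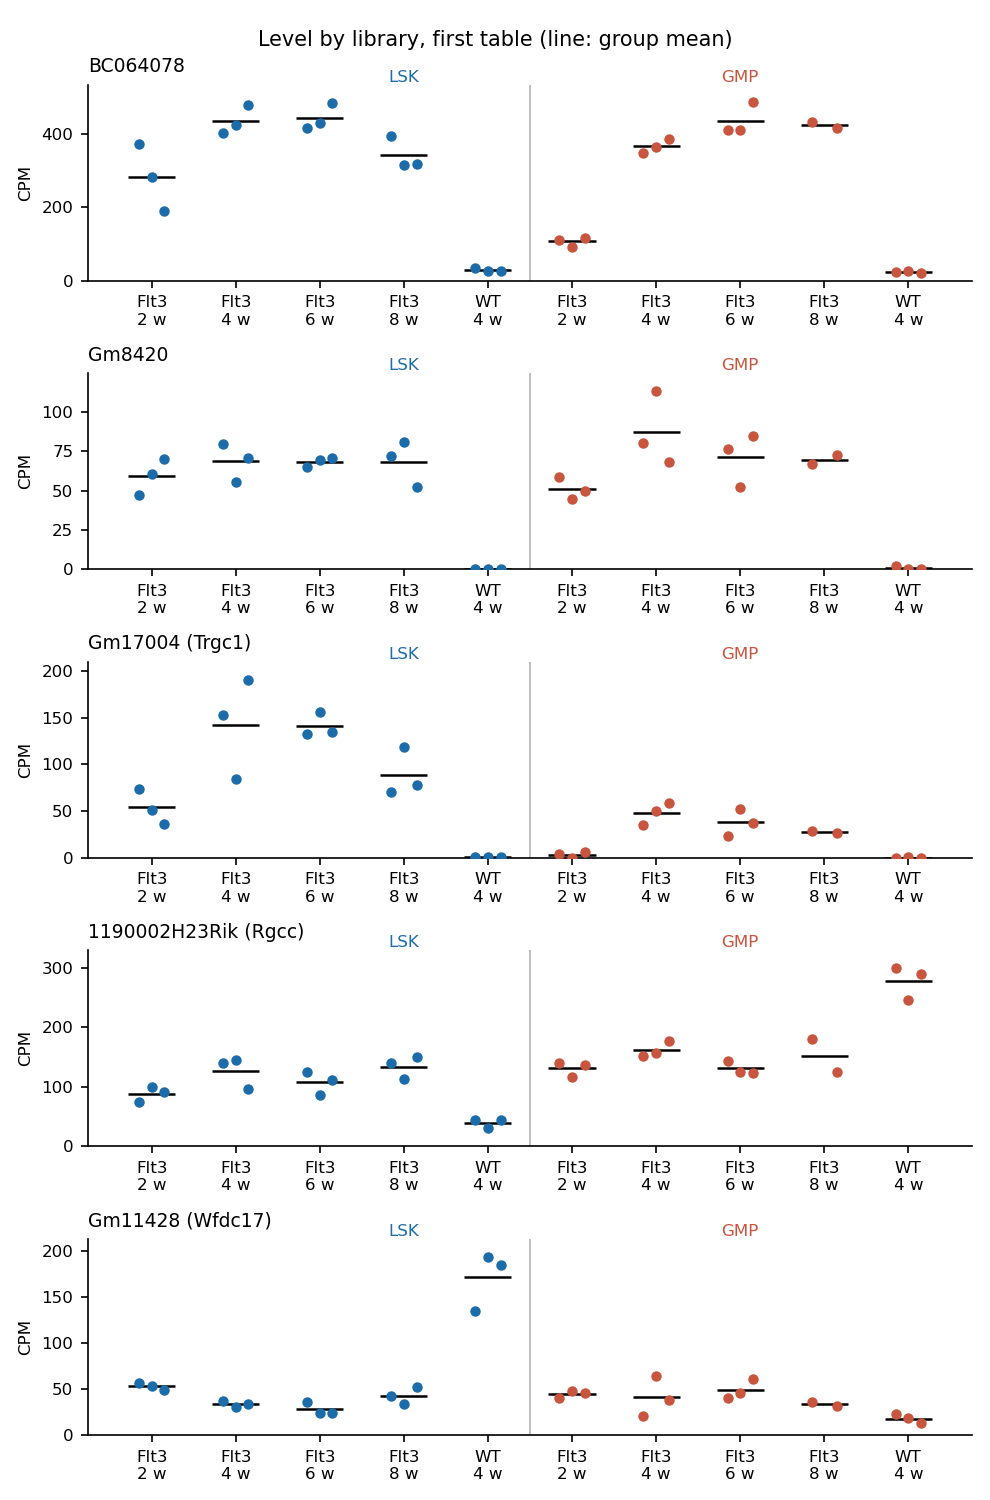
CPM of the 5 genes in every library of the first table except the near-empty one (points) with the group mean (line), LSK in blue and GMP in red, by week label, with WT at the right of each cell type. BC064078 and Gm8420 were lowest in the WT libraries, and Gm17004 was low in WT and in 2-week Flt3 GMP, while 1190002H23Rik was higher than WT in Flt3 LSK and lower than WT in Flt3 GMP.

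Gm17004, the T-cell receptor gamma constant region, was nearly absent from WT cells and, in Flt3 and double mutant cells, had a higher mean in LSK than in GMP. In Flt3 LSK it had 73.8, 51.3 and 36.6 CPM at 2 weeks, 153, 84.2 and 190 CPM at 4 weeks, 132, 155.6 and 135 CPM at 6 weeks, and 70.4, 119 and 78.3 CPM at 8 weeks, against 0.351, 1.24 and 0.768 CPM in WT LSK. In Flt3 GMP it had 4.60, 0 and 5.70 CPM at 2 weeks, 34.9, 50.6 and 58.8 CPM at 4 weeks, 23.8, 52.6 and 37.4 CPM at 6 weeks, and 28.9 and 27.0 CPM at 8 weeks, against 0, 0.498 and 0 CPM in WT GMP. All 12 Flt3 LSK libraries lay above every WT LSK library, while in GMP the 2-week library with no count overlapped WT.

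The means of Gm17004 were 107 ± 47.5 CPM in Flt3 LSK (SD, n = 12) and 0.785 ± 0.443 CPM in WT LSK (n = 3), a ratio of 136, with only 4 counts behind the WT mean. In GMP the pooled counts were 384 in Flt3 and 1 in WT, a ratio of 89.4 with an exact 95% interval of 15.9 to 3539 that covers counting error only. A gap between whole groups without overlap occurred in 7.3% of genes with 10 or more counts in LSK and in 8.4% in GMP. In LSK all 5 members showed such a gap and in GMP 3 of 5 did (BC064078, Gm8420 and 1190002H23Rik), which the choice of members fixed in part. With the 4-week Flt3 libraries alone, which match the WT in week label, 5 of 5 members in LSK and 4 of 5 in GMP (all but Gm11428) did not overlap WT, against 27% and 32.9% of genes.

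In the double mutants Gm17004 was likewise higher in LSK than in GMP, though present in both. Its level was 399, 468, 373 and 685 CPM in Npm1 Flt3 LSK, against 46.6, 34.2, 48.5 and 60.0 CPM in Npm1 Flt3 GMP, a ratio of means of 10.2. It was 636 and 484 CPM in Dnmt3a Flt3 LSK, with 564 CPM in the library with the conflicting code, against 128 and 123 CPM in Dnmt3a Flt3 GMP, with 173.5 CPM in the other such library, a ratio of 4.47 without those libraries. No LSK library overlapped a GMP library in either genotype, a gap that 10.1% of genes showed in Npm1 Flt3 cells and 59.3% in Dnmt3a Flt3 cells.

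Between the second mutations, the level in LSK did not separate, with 481 ± 141 CPM in Npm1 Flt3 (n = 4) and 560 ± 108 CPM in Dnmt3a Flt3 (n = 2). In GMP Npm1 Flt3 libraries were all below Dnmt3a Flt3 libraries, with means of 47.3 ± 10.6 and 125 ± 3.70 CPM and a ratio of 0.378. Such a gap was present in 38.6% of genes in LSK and 38.8% in GMP.

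Where LSK and GMP libraries carry the same code number, the CPM of Gm17004 was higher in the LSK library of every pair. That held in 8 of 8 pairs of Flt3 4 to 8 weeks, 3 of 3 of Flt3 2 weeks, 3 of 3 of Npm1 Flt3, 1 of 1 of Dnmt3a Flt3 and 3 of 3 of WT. The WT pairs rest on 1, 1 and 2 counts in LSK and 0, 1 and 0 in GMP, too few to show an order. In 4- to 8-week Flt3 pairs the LSK level was 1.67 to 5.56 times the GMP level.

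Other rows of the locus were not part of the choice and are given as levels. The joining segment Gm17003 (Trgj1) had 17.5 to 29.7 CPM in Npm1 Flt3 LSK, 30.5 to 38.0 CPM in Dnmt3a Flt3 LSK and at most 3.92 CPM in Flt3 LSK, and no count in the WT libraries. A row named Tcrg-C had 49.1 to 129 CPM in Npm1 Flt3 LSK, 69.8 to 102 CPM in Dnmt3a Flt3 LSK and 1.51 to 33.3 CPM in Flt3 LSK, and no count in WT LSK or WT GMP. Cd3e, which marks mature T cells, had no count in Flt3 LSK at 4, 6 or 8 weeks, in any Flt3 GMP group or in WT GMP. It had counts in Flt3 2-week LSK, in WT LSK and in every second-table group, Npm1 Flt3 LSK and Dnmt3a Flt3 LSK included. Cd3e was higher in TAM than in vehicle, by 3.13 ± 0.55 on the log2 scale (edgeR adjusted p = 0.000106). The part of T cells in the Gm17004 levels was not tested.

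BC064078, the non-coding gene of the Clec2 cluster, was high in every Flt3 library and present at a low level in WT. In Flt3 LSK it had 373, 283 and 189 CPM at 2 weeks, 402, 426 and 480 CPM at 4 weeks, 416, 430 and 484 CPM at 6 weeks, and 395, 314 and 320 CPM at 8 weeks, against 34.0, 27.2 and 25.7 CPM in WT LSK. In Flt3 GMP it had 111, 92.9 and 116 CPM at 2 weeks, 349, 365 and 387 CPM at 4 weeks, 411, 410 and 487 CPM at 6 weeks, and 434 and 416 CPM at 8 weeks, against 22.7, 25.9 and 20.8 CPM in WT GMP. No Flt3 library overlapped a WT library of its cell type, and the 2-week GMP were lowest among the Flt3 groups.

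The means of BC064078 were 376 ± 85.7 CPM in Flt3 LSK and 29.0 ± 4.43 CPM in WT LSK, a ratio of 13.0, and 325 ± 145 CPM in Flt3 GMP and 23.1 ± 2.58 CPM in WT GMP, a ratio of 14.1. In the double mutants it was 129, 83.1, 63.7 and 80.2 CPM in Npm1 Flt3 LSK, against 35.5 and 28.7 CPM in Dnmt3a Flt3 LSK (39.7 CPM in the library with the conflicting code). It was 55.7, 40.2, 44.3 and 47.1 CPM in Npm1 Flt3 GMP, against 13.5 CPM in each of the 2 Dnmt3a Flt3 GMP libraries (18.7 CPM in the library with the conflicting code). The ratio of Npm1 Flt3 over Dnmt3a Flt3 was 2.77 in LSK and 3.47 in GMP, with no overlap in either cell type. Such a gap was present in 38.6% of genes in LSK and 38.8% in GMP. The LSK level was 1.90 times the GMP level in Npm1 Flt3 and 2.38 times in Dnmt3a Flt3, again without overlap. Among genes with 10 or more counts, 10.1% showed that gap in Npm1 Flt3 cells and 59.3% in Dnmt3a Flt3 cells.

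The coding neighbours of BC064078 were close to silent in the Flt3 cells of the first table. Clec2g had at most 0.568 CPM in any Flt3 library, and the row Clec2f-ps had no count in the first table. In the second table Clec2g had its highest levels, 3.12 to 7.90 CPM, in TAM Lin- cells, against 0.899 to 1.57 CPM in vehicle Lin- cells. With TMM scaling that difference did not pass, at 0.89 ± 0.62 on the log2 scale (edgeR adjusted p = 0.247). Clec2f-ps was lower in TAM, by -3.13 ± 0.85 (adjusted p = 0.00502). With library totals alone Clec2f-ps was not called (-2.03, adjusted p = 0.0991).

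Gm8420, the Rpl15 pseudogene, had counts in every Flt3 library of the first table and almost none in WT. It ranged from 47.2 to 80.7 CPM over the 12 Flt3 LSK libraries (median 69.9) and from 44.9 to 113 CPM over the 11 Flt3 GMP libraries (median 68.3). WT LSK had 0, 0 and 0.384 CPM, which is 1 count in all, and WT GMP had 1.97, 0 and 0 CPM, which is 2 counts. Pooled over libraries the ratio of Flt3 over WT was 426 in LSK (exact 95% interval 76.3 to 16845) and 141 in GMP (38.8 to 1162), intervals that cover counting error only.

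In the second table Gm8420 had between 0 and 10 counts per library, at most 0.441 CPM, although every one of those groups was built on the Flt3 mutation. That is under the lowest Flt3 library of the first table by the row's own level, in tables made separately. The labels name a paired-end and a single-end kit without saying which samples had which, and what goes with the difference between the tables was not tested.

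The parent gene did not separate the genotypes the way the pseudogene did. Rpl15 had 120 to 270 CPM in Flt3 LSK and 151 to 200 CPM in WT LSK, ranges that overlap, and 92.9 to 225 CPM in Flt3 GMP and 185 to 349 CPM in WT GMP. The Gm8420 level was 17.5 to 55.4% of the Rpl15 level in Flt3 LSK and 0 to 0.254% in WT LSK, and 23.4 to 65.2% in Flt3 GMP and 0 to 0.565% in WT GMP. In the second table Rpl15 was at 151 CPM or more in every library. Between cell types the pseudogene did not order in the Flt3 cells, with 66.2 ± 10.4 CPM in LSK and 69.9 ± 19.3 CPM in GMP.

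1190002H23Rik (Rgcc), the cell cycle regulator, was higher in Flt3 than in WT LSK and lower in Flt3 than in WT GMP, with no overlap in either cell type. In Flt3 LSK it ranged from 75.0 to 150 CPM (median 112, 12 libraries), against 44.9, 30.9 and 43.8 CPM in WT LSK. In Flt3 GMP it ranged from 117 to 180 CPM (median 140, 11 libraries), against 301, 246 and 290 CPM in WT GMP. Every Flt3 LSK library was above every WT LSK library and every Flt3 GMP library below every WT GMP library, with ratios of means of 2.87 and 0.515. The 8 GMP sort markers moved with the GMP difference: their summed level was 15017 to 31640 CPM in the Flt3 GMP groups and 45709 to 55678 CPM in WT GMP, and by the same edgeR fit 6 were lower and 1 was higher of 8 tested. In LSK these markers did not move with the gene. Of the 8, 4 were lower and 0 higher in Flt3 than in WT LSK, where 1190002H23Rik was higher in Flt3. The part of these markers in the 1190002H23Rik differences was not tested.

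The cell type difference of 1190002H23Rik was accordingly large in WT, where LSK had 39.9 ± 7.78 CPM and GMP 279 ± 28.7 CPM, a ratio of 0.143 without overlap (47.8% of genes showed such a gap). In Flt3 cells the means were 114 ± 25.3 CPM in LSK and 144 ± 21.3 CPM in GMP, a ratio of 0.797, and the ranges overlapped. A gap between all Flt3 LSK and all Flt3 GMP libraries was rare, at 0.903% of genes, and none of the 5 members had it. By code number, 1190002H23Rik was higher in LSK in 1 of 8 Flt3 pairs of 4 to 8 weeks, in 0 of 3 of 2 weeks and in 0 of 3 of WT.

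The second mutation went with a difference in GMP. 1190002H23Rik had 9.19, 39.6, 114 and 200 CPM in Npm1 Flt3 GMP, against 388 and 329 CPM in Dnmt3a Flt3 GMP (343 CPM in the library with the conflicting code). The 4 Npm1 Flt3 libraries were widely spread, and all of them were below both Dnmt3a Flt3 libraries. A gap in either direction was present in 38.8% of genes. The 8 GMP sort markers summed to 18962 to 50226 CPM in Npm1 Flt3 GMP and 60153 to 62191 CPM in Dnmt3a Flt3 GMP, and the 8 basophil and mast cell markers to 139 to 364 CPM in Npm1 Flt3 GMP and 1615 to 1881 CPM in Dnmt3a Flt3 GMP. The part of either list in the difference was not tested. In LSK it had 81.8, 35.0, 25.1 and 20.9 CPM in Npm1 Flt3, against 20.8 and 44.8 CPM in Dnmt3a Flt3, which overlap; the Dnmt3a Flt3 LSK library with the conflicting code had 105 CPM, above both.

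Of the 12 CDK1 partners and mitotic genes listed beside Rgcc, all were tested between 4 to 8 weeks and 2 weeks. None passed in either cell type (edgeR with TMM scaling, adjusted p below 0.05), with 1 of 12 at an unadjusted p below 0.05 in LSK and 1 of 12 in GMP. Their sums in CPM, which have no TMM scaling, did separate by time, the 2-week libraries being lowest. In LSK they were 1194 to 1364 CPM at 2 weeks and 1427 to 1762 CPM at 4 to 8 weeks. In GMP they were 972 to 1329 CPM at 2 weeks and 1459 to 1873 CPM at 4 to 8 weeks. Their summed level was 1194 to 1762 CPM over the Flt3 LSK groups and 1374 to 1781 CPM in WT LSK, and 972 to 1873 CPM over the Flt3 GMP groups and 1452 to 1519 CPM in WT GMP, so the sums of the genotypes overlapped.

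Gm11428 (Wfdc17), the WAP-domain gene of macrophages, was the member that Flt3 LSK had less of. Its level in Flt3 LSK was 56.9, 53.5 and 48.5 CPM at 2 weeks, 37.4, 30.9 and 33.7 CPM at 4 weeks, 36.1, 24.2 and 23.5 CPM at 6 weeks, and 42.4, 33.2 and 52.2 CPM at 8 weeks, against 135, 194 and 185 CPM in WT LSK. In Flt3 GMP it ranged from 21.0 to 63.8 CPM (median 40.8, 11 libraries), against 22.7, 18.4 and 12.7 CPM in WT GMP. The Flt3 LSK libraries were all below the WT LSK libraries, with a ratio of means of 0.230, while in GMP the ratio was 2.39 and the lowest Flt3 library overlapped WT.

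WT cells showed a clear LSK level, 171 ± 31.8 CPM against 17.9 ± 4.98 CPM in GMP, and Flt3 cells did not, with 39.4 ± 11.3 CPM in LSK and 42.8 ± 12.3 CPM in GMP. The 8 tissue macrophage markers were likewise higher in WT LSK, and so were other lists. The macrophage markers all had counts in WT LSK, where their summed level was 324 to 2078 CPM, against 12.9 to 62.8 CPM in Flt3 LSK, where C1qa was at 0 at 2 and 6 weeks. Within WT LSK, sums of 324, 664 and 2078 CPM went with 135, 194 and 185 CPM of Gm11428. Megakaryocyte markers summed to 705 to 1084 CPM in WT LSK and 6.52 to 179 CPM in Flt3 LSK (edgeR, 4 of 5 lower in Flt3). Erythroid markers summed to 484 to 694 CPM in WT LSK and 3.74 to 137 CPM in Flt3 LSK (6 of 6 lower). In GMP the macrophage sum was 26.5 to 108 CPM in Flt3 and 87.1 to 146 CPM in WT, ranges that overlap and whose higher end lies in WT, the group with less Gm11428. The part of macrophage RNA or of these other cells in the LSK result was not tested, and in bulk samples fewer cells of a type and less RNA per cell cannot be told apart.

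The sharpest contrast of Gm11428 was between the second mutations. It had 60.0, 31.3, 46.9 and 81.1 CPM in Npm1 Flt3 LSK, against 0.140 and 0.229 CPM in Dnmt3a Flt3 LSK (0.0261 CPM in the library with the conflicting code). It had 38.9, 17.3, 23.4 and 29.4 CPM in Npm1 Flt3 GMP, against 0.207 and 0.209 CPM in Dnmt3a Flt3 GMP (0.195 CPM in the library with the conflicting code). The ratios of means were 297 in LSK and 131 in GMP, and the Dnmt3a Flt3 groups still had 24 and 39 counts behind their means. The tissue macrophage sum differed far less, at 42.5 to 70.1 CPM in Npm1 Flt3 LSK and 15.5 to 28.7 CPM in Dnmt3a Flt3 LSK, and at 78.3 to 201 CPM in Npm1 Flt3 GMP and 47.7 to 66.4 CPM in Dnmt3a Flt3 GMP.

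Markers of 2 other cell types moved with Gm11428 between the second mutations. The 9 dendritic cell markers, all with counts in every one of these groups, summed to 7941 to 33846 CPM in Npm1 Flt3 LSK and 784 to 863 CPM in Dnmt3a Flt3 LSK, and to 26634 to 55623 CPM in Npm1 Flt3 GMP and 139 to 166 CPM in Dnmt3a Flt3 GMP. The 8 late neutrophil markers summed to 238 to 609 CPM in Npm1 Flt3 LSK and 76.7 to 94.8 CPM in Dnmt3a Flt3 LSK, and to 403 to 1553 CPM in Npm1 Flt3 GMP and 102 to 110 CPM in Dnmt3a Flt3 GMP, where Camp was at 0. Without the libraries with conflicting codes, the genotypes overlapped in neither sum, and the part of these cells in the Gm11428 difference was not tested. Between Flt3 and WT LSK the dendritic cell markers went the other way from Gm11428, which was lower in Flt3 LSK. They summed to 1939 to 25349.5 CPM in Flt3 LSK and 319 to 616 CPM in WT LSK, and 9 of 9 were higher in Flt3 (edgeR). In Flt3 GMP, where the mean of Gm11428 was higher than in WT, 8 of 8 dendritic cell markers tested were higher.

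The adjacent WAP gene Wfdc18 (row Expi) was low throughout the second table. It had 0.624 to 1.16 CPM in Npm1 Flt3 LSK and 0.0623 to 0.183 CPM in Dnmt3a Flt3 LSK, 0 to 1.84 CPM in Npm1 Flt3 GMP and no count in Dnmt3a Flt3 GMP. In WT LSK it had 3.71 to 13.1 CPM, its highest level in the first table, against at most 2.37 CPM in Flt3 LSK.

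**Figure D2:**
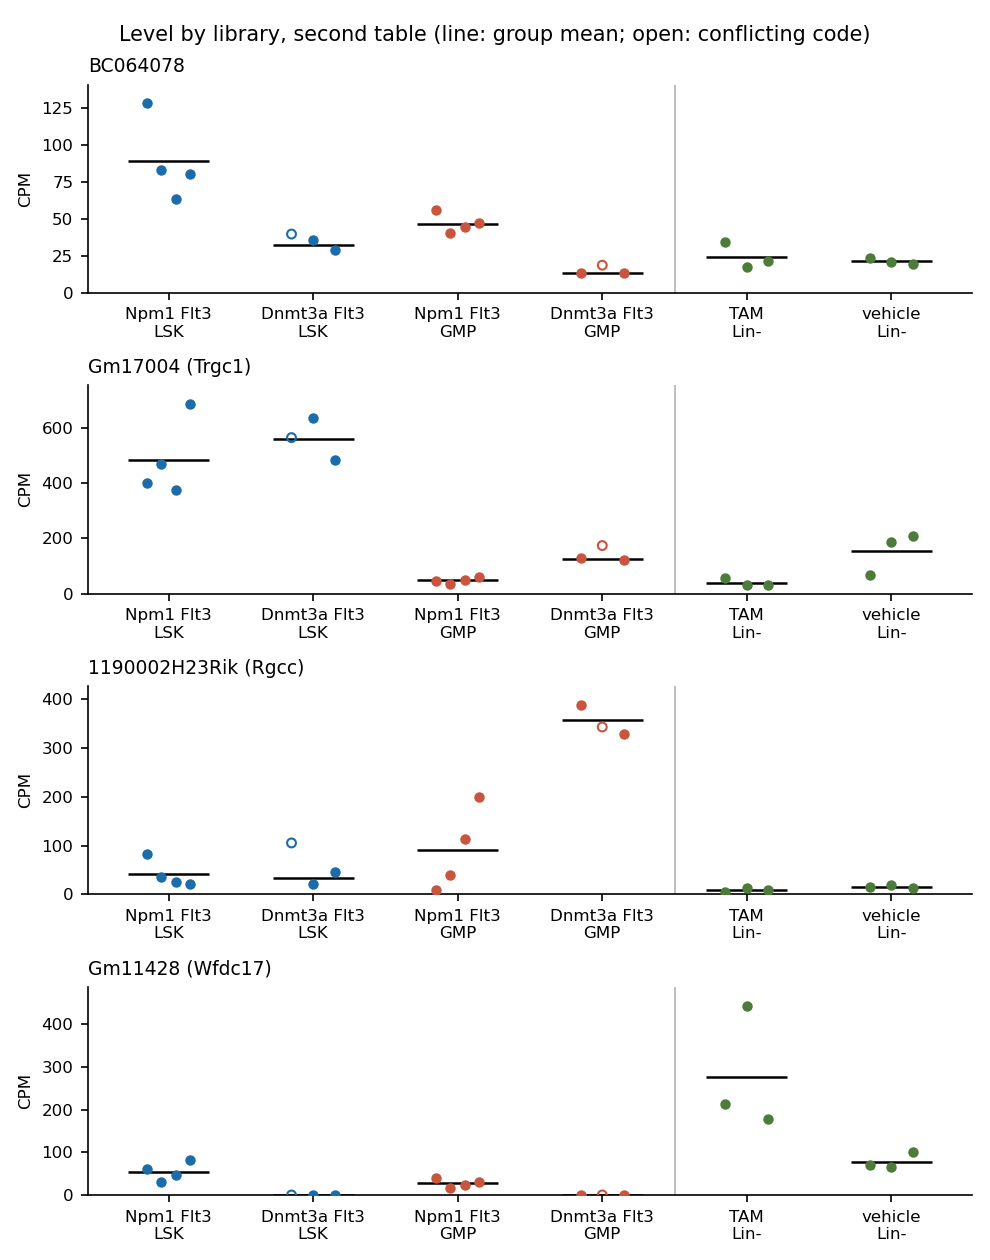
CPM of 4 of the genes in every library of the second table (filled points) with the group mean (line), open points being the libraries with conflicting codes, which are out of the means. Gm17004 was highest in LSK of both genotypes, Gm11428 was near 0 in every Dnmt3a Flt3 library, and the 4 Npm1 Flt3 GMP libraries of 1190002H23Rik ran from 9.19 to 200 CPM.

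**Figure D3:**
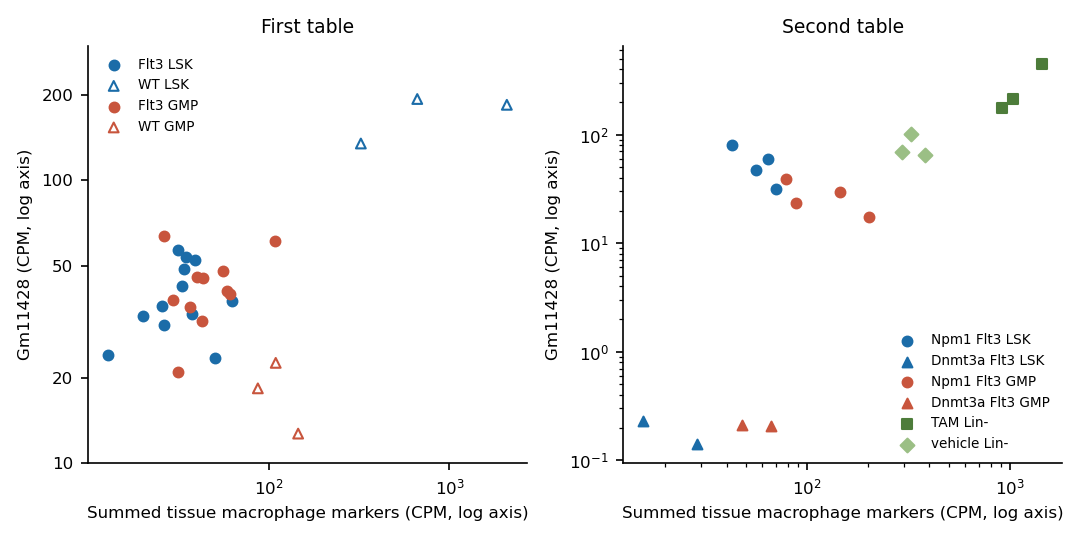
Gm11428 against the summed level of 8 tissue macrophage markers, 1 point per library without the near-empty library and those with conflicting codes, both axes in CPM on a log scale, first table at the left and second at the right. WT LSK stands apart at high values of both in the first table and TAM at high values of both in the second, while Npm1 Flt3 and Dnmt3a Flt3 libraries with marker sums of the same order differ in Gm11428.

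Time in Flt3 mice was tested by setting all 4-, 6- and 8-week libraries against the 2-week libraries of the same cell type in edgeR's quasi-likelihood fit over all genes, with Benjamini-Hochberg adjustment. In GMP, BC064078 and Gm17004 rose. BC064078 was higher at 4 to 8 weeks by 1.56 ± 0.17 on the log2 scale (SE, adjusted p = 1.37e-11), and all 8 libraries of 4 to 8 weeks, at 349 CPM or more, lay above the 2-week libraries, at 116 CPM or less. Gm17004 was higher by 2.64 ± 0.35 (adjusted p = 6.53e-09), and again 8 of 8 libraries, at 23.8 CPM or more, lay above the 2-week libraries, at 5.70 CPM or less. These 2 of 5 members compare with 24.4% of all genes tested.

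The other 3 members did not pass in GMP: Gm8420 differed by 0.22 ± 0.20 (adjusted p = 0.466), 1190002H23Rik by -0.19 ± 0.15 (adjusted p = 0.397) and Gm11428 by -0.45 ± 0.23 (adjusted p = 0.156). The 2-week GMP libraries stood apart in another respect, since the 8 basophil and mast cell markers summed to 348 to 1153 CPM at 4 to 8 weeks, against 57920 to 71285 CPM at 2 weeks. All 8 of those markers fell at 4 to 8 weeks, as did 8 of 8 dendritic cell markers tested. Whether that mixture bears on the rise of BC064078 and Gm17004 was not tested.

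In LSK, Gm17004 rose and Gm11428 fell, 2 of 5 members against 16.8% of all genes tested. Gm17004 was higher at 4 to 8 weeks by 0.91 ± 0.25 (adjusted p = 0.0154), with 70.4 CPM or more at 4 to 8 weeks and 73.8 CPM or less at 2 weeks, so that 1 library of 4 to 8 weeks fell below the highest 2-week library. The call was lost without 2-week LSK replicate 2 (adjusted p = 0.0857) or replicate 3 (adjusted p = 0.105). Gm11428 was lower by -0.91 ± 0.21 (adjusted p = 0.00273), a call that held in all 18 alternatives tried, with 8 of the 9 later libraries below the lowest 2-week library.

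The 2-week LSK libraries stood apart in other markers too. All 9 dendritic cell markers fell at 4 to 8 weeks, with sums of 1939 to 14294 CPM at 4 to 8 weeks and 13838 to 25349.5 CPM at 2 weeks. Of the basophil and mast cell markers 4 of 5 tested fell (131 to 253 CPM in sum at 4 to 8 weeks, 462 to 2517 CPM at 2 weeks), and so did both erythroid markers tested (3.74 to 35.9 CPM at 4 to 8 weeks, 93.3 to 137 CPM at 2 weeks). The 8 lymphoid and plasma cell markers summed to 587 to 808 CPM at 4 to 8 weeks and 5804 to 15523 CPM at 2 weeks, and of the 3 tested 2 fell and 1 rose. Their part in the rise of Gm17004 and the fall of Gm11428 in LSK was not tested.

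BC064078 differed in LSK by 0.25 ± 0.13 (adjusted p = 0.207), Gm8420 by -0.09 ± 0.18 (adjusted p = 0.816) and 1190002H23Rik by 0.16 ± 0.17 (adjusted p = 0.577). Without 2-week LSK replicate 1, BC064078 differed by 0.51 (adjusted p = 0.0143). The tissue macrophage sum was 12.9 to 62.8 CPM at 4 to 8 weeks and 31.5 to 34.7 CPM at 2 weeks, ranges that overlap. Of the WAP-domain genes other than Gm11428, 1 was tested in LSK, the protease inhibitor Slpi, and it fell by -2.38 ± 0.35 (adjusted p = 0.00175). In GMP both tested genes of that list fell, Slpi by -0.44 ± 0.16 (adjusted p = 0.0386) and 1100001G20Rik (Wfdc21) by -3.24 ± 0.49 (adjusted p = 1.24e-06).

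The size of the time effect differed between the cell types for the same 2 genes. In an added fit over both cell types the effect in LSK minus that in GMP was -1.32 ± 0.21 for BC064078 (adjusted p = 4.39e-05) and -1.70 ± 0.43 for Gm17004 (adjusted p = 0.0191), against 2.73% of all genes with a difference. DESeq2 gave adjusted p = 0.0566 for Gm17004. Cell type was part of the choice of members, and the fit was added after seeing the data. Its p-values are therefore not independent of that choice. LSK and GMP libraries that share a code number entered that fit as independent. With the code number as a block the differences were -1.25 ± 0.22 for BC064078 (adjusted p = 5.85e-06) and -1.75 ± 0.37 for Gm17004 (adjusted p = 0.000552). The differences of Gm8420 (-0.32 ± 0.27), 1190002H23Rik (0.33 ± 0.22) and Gm11428 (-0.48 ± 0.32) did not pass.

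Over the weeks as a number, from 2 to 8, BC064078 had a slope in GMP of 0.25 ± 0.06 log2 per week (adjusted p = 0.0125), where 12.2% of genes had one. Without the 2-week libraries its slope was 0.04 (adjusted p = 0.916), and without 2-week GMP replicate 3 it missed the threshold (adjusted p = 0.0522). The other 4 members had no slope past the threshold in GMP, and none of the 5 had one in LSK, where 2.7% of genes did. Gm11428 in LSK had -0.12 ± 0.05 per week (adjusted p = 0.213), and -0.29 without the 8-week libraries (adjusted p = 0.00937).

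**Figure D4:**
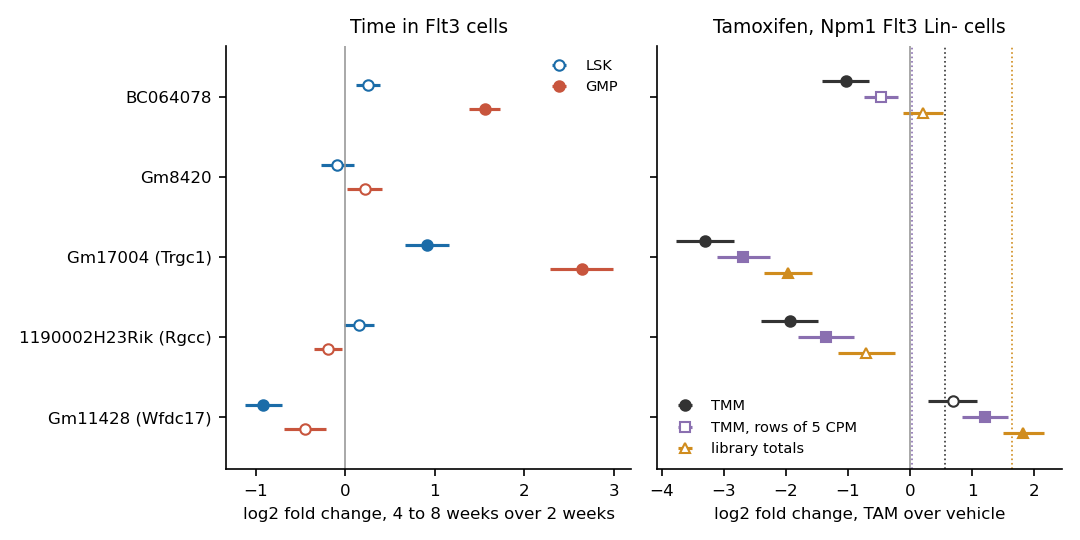
Log2 fold changes with their SE, filled where the adjusted p is below 0.05: 4 to 8 weeks over 2 weeks in Flt3 LSK (blue) and GMP (red) at the left, and TAM over vehicle in Npm1 Flt3 Lin- cells under 3 scalings at the right, with the median of all genes under each scaling as a dotted line. Gm17004 was lower in TAM under each of the 3, and BC064078 lay on either side of 0.

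Tamoxifen was compared with vehicle in Lin- progenitors of Npm1 Flt3 mice, which asks what follows when the mutant Flt3 allele is deleted. The Flt3 row itself had 121, 183 and 83.3 CPM in TAM, against 209, 181 and 160 CPM in vehicle, which overlap, and the row does not separate mutant from normal transcripts. It was lower by -1.68 ± 0.39 on the log2 scale (edgeR adjusted p = 0.00126) with TMM scaling and by -0.50 (adjusted p = 0.109) with library totals alone. The 2 arms differed in much of the transcriptome: 31.4% of genes tested were called, the TAM libraries were shallower, and the median of all genes was 0.56 on the log2 scale with TMM scaling, 0.30 with median-ratio scaling, 0.03 where only rows of 5 CPM or more were kept, and 1.64 with library totals alone. Differences between TAM and vehicle are therefore also given relative to that median.

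The arms also differed in markers of several cell types. With TMM scaling 9 of 9 dendritic cell markers were higher in TAM (31918 to 40138 CPM in sum in TAM, 2642 to 5513 CPM in vehicle; 8 of 9 with median-ratio scaling), as were 7 of 8 late neutrophil markers (1966 to 3215 CPM in TAM, 208 to 250 CPM in vehicle) and 6 of 6 erythroid markers (567 to 736 CPM in TAM, 1.26 to 8.23 CPM in vehicle). Of the 8 GMP sort markers 5 were lower and 1 was higher in TAM (1156 to 1503 CPM in TAM, 5454 to 6631 CPM in vehicle), and 5 were lower and 3 higher with library totals alone. The part of this mixture in the TAM differences of the members below was not tested.

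Gm17004 was lower in TAM, with 55.5, 31.2 and 31.6 CPM in TAM, against 68.4, 187 and 208 CPM in vehicle. The groups did not overlap, and vehicle replicate 1 lay nearest to TAM. A gap in either direction was present in 64.3% of 30405 genes with 10 or more counts. In 2845 of these genes TAM was the lower group, as for Gm17004, and in 16711 it was the higher. The difference was -3.31 ± 0.47 (log2, edgeR adjusted p = 6.59e-06), or -3.87 relative to the median of all genes, and it was -1.97 (adjusted p = 0.00453) with library totals alone. All 12 alternatives kept the call. The neighbouring row Gm17003 (Trgj1) differed by -3.46 ± 0.61 (adjusted p = 5.33e-05), and by -2.09 (adjusted p = 0.0365) with library totals alone.

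1190002H23Rik had 5.51, 13.5 and 9.58 CPM in TAM, against 13.9, 19.2 and 13.5 CPM in vehicle. The highest TAM library and the lowest vehicle library were nearly equal. The difference was -1.94 ± 0.46 (adjusted p = 0.00162), or -2.50 relative to the median, and -0.70 (adjusted p = 0.197) with library totals alone. Of the 12 CDK1 partners and mitotic genes, 11 were lower in TAM with TMM scaling, among them Cdk1 itself at -3.14 ± 0.40 (adjusted p = 1e-06) and the checkpoint kinase Bub1 at -3.71 ± 0.43 (adjusted p = 2.05e-07). The CDK1 inhibitor kinase Wee1 was the exception, at -0.51 ± 0.48 (adjusted p = 0.387), and at 0.71 (adjusted p = 0.202) with library totals alone. With library totals alone 9 of the 12 were lower and none was higher.

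Gm11428 had 213, 443 and 178 CPM in TAM, against 69.9, 64.6 and 101 CPM in vehicle. All 3 TAM libraries were above all 3 vehicle libraries, and TAM replicate 2 was the highest of the second table. Of 30405 genes with 10 or more counts, 16711 likewise had all TAM libraries above all vehicle libraries. The call depended on the scaling: 0.68 ± 0.40 (adjusted p = 0.175) with TMM, 1.21 (adjusted p = 0.0219) with rows of 5 CPM or more, and 1.83 (adjusted p = 0.0027) with library totals alone, which was 0.12, 1.18 and 0.19 above the median of all genes under each.

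The tissue macrophage markers moved with Gm11428 here. Their sum was 912 to 1436 CPM in TAM and 292 to 379 CPM in vehicle, 5 of 8 rose and 1 fell with TMM (7 and 1 with library totals alone), with C1qb at 4.54 ± 0.43 (adjusted p = 5.46e-09) and Mrc1 at -2.51 ± 0.43 (adjusted p = 4.48e-05), and their part in the result was not tested. Among the 11 other WAP-domain genes tested, 1 was higher, 1100001G20Rik at 3.49 ± 0.67 (adjusted p = 0.000136), and 1 was lower, Slpi at -1.49 ± 0.39 (adjusted p = 0.00375). Slpi was not called with library totals alone (-0.26, adjusted p = 0.31). Wfdc18 (row Expi) did not pass, at 0.84 ± 0.72 (adjusted p = 0.345).

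BC064078 gave no stable answer to tamoxifen. It had 34.5, 17.7 and 21.5 CPM in TAM, against 23.8, 20.5 and 19.5 CPM in vehicle, and the groups overlapped. The fit with TMM gave -1.04 ± 0.38 (adjusted p = 0.0363), or -1.60 relative to the median of all genes, but 0.21 (adjusted p = 0.58) with library totals alone and -0.47 (adjusted p = 0.172) with rows of 5 CPM or more. It also lost the call on leaving out TAM replicate 2 (adjusted p = 0.0897), TAM replicate 3 (adjusted p = 0.142), vehicle replicate 2 (adjusted p = 0.069) or vehicle replicate 3 (adjusted p = 0.066). Gm8420 had 3, 0 and 10 counts in TAM and 7, 0 and 3 in vehicle and was not tested.

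Of the other clone-named and predicted rows, 87 of 812 tested (10.7%) were called over time in LSK and 113 of 706 (16%) in GMP, below the 16.8% and 24.4% of all genes. In Lin- cells 1090 of 7325 (14.9%) were called between TAM and vehicle, 646 higher and 444 lower, a split that became 2559 higher and 120 lower with library totals alone. By the same fit for genotype, 92 of 851 (10.8%) were called between Flt3 and WT LSK, where 15% of all genes were, and 186 of 757 (24.6%) between Flt3 and WT GMP, where 26.2% were.

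The genes whose profile over the 16 group means was most like each member were found among 9070 candidates, by the root mean square difference of log2(CPM + 1) centred within each table. They describe likeness over groups that share libraries and, in part, the contrasts by which the members were chosen. For BC064078 they were Stxbp6 (0.64), Tns1 (0.66) and Dusp5 (0.69), the last a phosphatase that acts on ERK. For Gm8420 they were Igfbp7 (0.99), Stxbp6 (1.02) and Cish (1.18), and for Gm17004 they were Socs2 (0.91), Gm16603 (1.00) and Serpina3f (1.00). Cish and Socs2 code for feedback inhibitors of cytokine signalling.

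For 1190002H23Rik the nearest profiles were those of Prss57 (0.52), a serine protease of myeloid granules, Ncln (0.56) and Ddost (0.57). For Gm11428 they were Lgmn (0.70), a lysosomal protease, Ms4a4b (0.92) and Hmox1 (0.93), the haem-degrading oxygenase. Socs2, the nearest to Gm17004, had 750 to 1146 CPM in Flt3 LSK at 4 to 8 weeks and 33.8 to 78.6 CPM in WT LSK, and 477 to 663 CPM in Flt3 GMP at 4 to 8 weeks and 0.498 to 1.97 CPM in WT GMP. Like Gm17004 it was higher at 4 to 8 weeks than at 2 weeks in GMP, by 2.04 ± 0.18 (edgeR adjusted p = 4.66e-15). Unlike Gm17004 it did not pass in LSK, at 0.19 ± 0.10 (edgeR adjusted p = 0.225). Prss57 had 652 to 694 CPM in Dnmt3a Flt3 GMP and 146 to 178 CPM in Dnmt3a Flt3 LSK.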

How the data were processed

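The deposited tables hold whole-number counts per gene. The authors' tools were STAR and featureCounts on mm10, per the submitters' processing notes; the gene annotation, strand setting and handling of reads with several placements are not given in the sources used here. RNA was sorted into Trizol and the libraries were made with Takara kits, per the labels' protocols.

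Levels are counts divided by the library total, scaled to CPM. Tests used edgeR 4.0.16 (R 4.3.3) with TMM scaling, filterByExpr and the robust quasi-likelihood test, over all genes and within 1 table, with Benjamini-Hochberg adjusted p below 0.05, and were tested on simulated data. SE is the log2 fold change divided by the square root of F. Alternatives were DESeq2 1.42.0, other scalings and filters, the replicate number as a block, and leaving out each library. The interaction of time and cell type, also with the code number shared by LSK and GMP libraries as a block, library totals alone for TAM, DESeq2 without the near-empty library and the block for genotype were added after seeing the data.

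In the TAM experiment same-numbered libraries had r of 0.111 to 0.304 (3 pairs) and other-numbered libraries r of -0.255 to 0.128 (6 pairs). The sample codes pair no TAM library with a vehicle library. The main fit was unpaired, with the replicate number as a block only among the alternatives. Elsewhere same-numbered libraries had r between -0.202 and 0.16, and the numbers were only names. All 52 pairs of replicates differed by more than sampling noise (chi-square over its degrees of freedom at least 2.26).

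The members and lists were chosen with earlier results of these data known. The genes named are the members, their neighbours and copies, the 3 rows nearest in profile, and members of the WAP and CDK1 lists that passed a test. Wee1, Cd3e, C1qa, C1qb and Mrc1 were named after their values were seen, and the Flt3 row as the targeted gene. Symbols were matched through RefSeq synonyms (GRCm38.p6); copies were aligned with Biopython 1.88 from GENCODE M21 transcripts. Intervals on pooled ratios are exact and conditional on the sum of counts.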

Additional observations from a re-analysis of the deposited data

Results flagged for a closer look

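The effect of time, 4 to 8 weeks against 2 weeks, differed between Flt3 LSK and Flt3 GMP for BC064078, by -1.32 on the log2 scale (LSK minus GMP), and for Gm17004, by -1.70. Both were tested as an interaction in a fit over both cell types, added after seeing the data. Cell type was part of the choice of members, so the p-values are not independent of it. The 2-week GMP libraries, on which both values rest, also had basophil and mast cell markers summing to 57920 to 71285 CPM, and the part of that in the results was not tested.

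The Flt3 over WT ratio of 1190002H23Rik was 2.87 in LSK and 0.515 in GMP, opposite directions in which every library took part. That difference was not tested, since the gene was chosen for its genotype and cell type pattern.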

How the results depend on the processing

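The 458 alternatives to the members' tests kept direction and call in 420 cases, lost a call in 11, gained one in 4 and turned the direction in 23, all but 1 of these where the estimate had not passed. BC064078 in TAM was 0.21 with library totals alone. Gm8420 over time in LSK was -0.1992 to 0.1169 without 1 library each (highest without 2-week replicate 3). Slopes in LSK without the 2-week libraries were -0.0771 for BC064078, 0.0106 for Gm8420, -0.1657 for Gm17004 and 0.0666 for Gm11428, and -0.0030 for 1190002H23Rik without the 8-week libraries; leaving out 1 library each gave -0.0277 to 0.0316 for BC064078 and -0.0234 to 0.0188 for Gm8420. The Gm8420 slope in GMP, -0.0007, was 0.0030 with DESeq2 less the near-empty library, 0.0001 with no filter, 0.0008 with rows of 5 CPM, 0.0324 without 8-week libraries, and -0.0236 to 0.0136 without 1 library; the Gm17004 slope there was -0.21 without the 2-week libraries. With the replicate block the Gm8420 slope was 0.0005; the block, for the interaction by code number, lost or gained no call of a member, in TAM included, where it called 10299 genes (4289 higher, 6010 lower). Of the log2 ratios given without a test, 14 of 560 alternatives moved by more than the replicate SD and 2 turned: BC064078 in WT LSK over GMP was -0.0133 with TMM, and Gm11428 in Dnmt3a Flt3 LSK over GMP was 0.1370 without Dnmt3a Flt3 LSK replicate 2 and -0.5711 without replicate 3.

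Counts of genes called moved by over 1.5 times in these cases. In GMP over time (2158, 839 higher and 1319 lower) DESeq2 called 763 (135 and 628), and without the near-empty library 841 higher and 1294 lower. For the LSK slope (258) DESeq2 called 442, no filter 653, the replicate block 120, no 2-week libraries 1 and no 8-week libraries 673. For the GMP slope (1075) no filter called 1830 and no 2-week libraries 52. For Flt3 against WT GMP (2393, 1191 higher and 1202 lower) DESeq2 called 912 (649 and 263), the 4-week libraries alone 1364, and median-ratio scaling split 1580 and 782, with the median gene at 0.17 instead of 0.04. For the interaction (270) DESeq2 called 141 and the code-number block 415. For TAM (7926, 2544 higher and 5382 lower) library totals alone gave 9294 higher and 2105 lower. Leaving out 1 library each gave 907 to 1806 (LSK over time, lowest without 2-week replicate 3), 1669 to 2291 (GMP over time), 59 to 505 (LSK slope, lowest without 2-week replicate 3 and 75 and 77 without the other two), 611 to 1261 (GMP slope, lowest without 2-week replicate 3, 613 without replicate 1), 5142 to 9876 (TAM, lowest without TAM replicate 1, 5159 without replicate 3), 1049 to 1596 (Flt3 against WT LSK) and 1557 to 2569 (Flt3 against WT GMP, lowest without WT replicate 1). The cause of these changes was not tested.

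Depth limits the low rows: 3 counts over WT GMP equal 0.664 CPM, near the Gm17004 and Gm8420 values there. With 2 Dnmt3a Flt3 libraries per cell type after the conflicting codes, spreads there are poorly known.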
